A study of Mus musculus with 23 samples.

Results

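The response to lipopolysaccharide (LPS) of bone marrow-derived macrophages (BMDM) that lack the kinases MK2 and MK3 was compared with that of wild-type (wt) BMDM. The labels put 16 of the 23 arrays of the series into this comparison. They were taken as 4 wt and 4 MK2/3-/- cultures, each with 1 array of cells in medium and 1 of cells with LPS. LPS was given at 100 ng/ml for 120 min. Arrays of equal genotype and replicate number were taken as 1 culture. The labels give them equal donor ages but do not state this pairing. The donors were male mice (strain C57BL/6 by the labels, with a C57BL/6J background of the knockouts by the methods), 12 or 13 weeks old for wt, 11 to 14 for MK2/3-/- and 10 to 13 for MK2-/- BMDM, and their femoral marrow had been turned into macrophages with M-CSF, so that all arrays share this growth factor. The methods speak of 4 independent experiments, and the sources do not state whether each culture came from a mouse of its own, so that p-values measure the spread between these cultures. A response is the log2 signal of a culture after LPS minus that of the same culture in medium, and a response difference is the mean MK2/3-/- response minus the mean wt response. Of the 7 arrays of MK2-/- BMDM, 3 cultures with both treatments are given beside some results. For 2 of these the replicate numbers are equal, whereas medium replicate 3 was set with LPS replicate 4 because their donors' ages are equal (13 weeks), a pairing that the labels do not state. In bulk RNA, fewer cells of a type and less RNA per cell cannot be told apart.

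LPS is sensed by TLR4 and activates NF-kB, interferon regulatory factors and the MAP kinases in parallel. p38 MAP kinase in turn activates MK2 and the closely related MK3, encoded by Mapkapk2 and Mapkapk3. MK2 is best known for phosphorylating tristetraprolin (Zfp36), a protein that binds AU-rich elements of cytokine mRNAs such as those of TNF and IL-10 and marks them for decay.

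Of all probes, 47.5% to 69.1% were well above background on an array, and both ends of this range were MK2/3-/- cultures in medium (cultures 1 and 2). The array of culture 2 in medium was also the only 1 of the 16 without a spatial gradient fit. Each genotype lay on its own slide, with medium and LPS in different rows. A level difference between genotypes and a slide difference therefore cannot be told apart, whereas a response compares arrays of 1 slide. All medium arrays were in row 1 and all LPS arrays in row 2, so that LPS and row effects cannot be told apart. The same holds for a response difference and a row effect that differs between slides. All 11 measured macrophage markers, such as Adgre1, Csf1r and Mertk, were well above background on all 16 arrays, and none had a response difference at an unadjusted p under 0.05. At that p, 2.96% of all genes had a higher and 3.61% a lower response in MK2/3-/- than in wt BMDM. Of 8 markers of neutrophils and granulocyte precursors, 4 had a response difference (S100a8 -0.98, S100a9 -1.25, Ngp -1.18 and Mpo 1.96 on the log2 scale). Their list summed to a linear signal of 3892 to 9987 in wt medium, 4181 to 13145 in wt LPS, 3007 to 18746 in MK2/3-/- medium and 3347 to 17171 in MK2/3-/- LPS arrays. Among other cell types, 1 of 7 dendritic cell markers (Batf3) and none of the lymphocyte, stromal and cycling cell markers had a response difference at that p. Cells of these 4 types were not absent by these markers. Of 6 erythroid markers, Hbb-bt and Klf1 had a response difference at that p. However, Hbb-bt, Hbb-bs and Alas2 were above background on no array, and 0 of the 6 were on all 16. The erythroid list summed to a linear signal of 29 to 44 in wt medium and 33 to 43 in MK2/3-/- LPS arrays, so that erythroid cells were not shown by it. The dendritic cell genes Flt3 and Batf3 and the stromal genes Col1a1 and Col1a2 were above background on all 16 arrays, whereas Clec9a (dendritic cells) and Lum (stroma) were on none. The 6 stromal markers summed to 4493 to 105788 in wt medium, 3897 to 87753 in wt LPS, 546 to 58993 in MK2/3-/- medium and 889 to 48995 in MK2/3-/- LPS arrays. The part of such cells in the results was not tested.

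The targeted genes were examined first. The log2 level of Mapkapk2 in medium was 12.46, 12.64, 11.49 and 12.28 in wt cultures 1 to 4 and 8.61, 8.57, 8.91 and 8.79 in MK2/3-/- cultures 1 to 4. After LPS it was 14.84, 15.37, 14.19 and 14.67 in wt and 11.54, 11.65, 11.58 and 12.26 in MK2/3-/- BMDM. The genotypes did not overlap under either treatment, and the level was lower in MK2/3-/- BMDM by a difference of -3.50 in medium (limma, adjusted p = 6.92e-05) and -3.01 after LPS (adjusted p = 1.85e-04). Of all genes, 15 (0.0577%) differed in level between the genotypes in medium and 263 (1.01%) after LPS at an adjusted p under 0.05. The remaining Mapkapk2 signal still rose with LPS, by 3.04 ± 0.33 (SD, n = 4) compared with 2.55 ± 0.19 in wt. The level of Mapkapk3 in MK2/3-/- BMDM differed from that in wt by -1.62 in medium (adjusted p = 0.00252) and by -3.30 after LPS (adjusted p = 1.53e-06). Its response was 0.84, 0.26, 0.77 and 0.17 in wt and -1.33, -1.20, -1.19 and -0.98 in MK2/3-/- cultures, so that it rose in wt and fell in MK2/3-/- BMDM, and the response difference was -1.68 (SE 0.20, adjusted p = 0.187). Where the probes lie relative to the deleted parts is not given in the sources used here.

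With LPS, 2119 of 26014 genes (8.15%) rose and 3251 (12.5%) fell in wt, and 3293 (12.7%) rose and 4534 (17.4%) fell in MK2/3-/- BMDM at an adjusted p under 0.05. The counts depended on single cultures. In wt, 1321 genes rose without wt culture 3 and 1563 fell without wt culture 2. In MK2/3-/- BMDM, with 1 culture left out, as few as 2336 genes rose and as few as 3185 fell. No gene (0%) passed that threshold for the response difference, the smallest adjusted p being 0.187 (limma). The methods' t-test, applied here to the responses of the cultures, gave 0 genes too at an adjusted p under 0.05. Unadjusted, it gave 765 genes with a higher and 1002 with a lower response at p under 0.05. The paper instead compared expression levels between genotypes at p under 0.05 and states no adjustment, so its count was not repeated here. An adjusted p under 0.05 was reached by 1 gene (Grpel2) without culture as a block and by 11 with culture as a random block. After another background correction 6 passed, and Il10 was among both the 11 and the 6. At an unadjusted p under 0.05, 769 genes (2.96%) had a higher and 938 (3.61%) a lower response in MK2/3-/- than in wt BMDM, so that 55.0% of these were lower. This share was 67% (525 higher and 1067 lower) when arrays were scaled to the 75th percentile. All 4 MK2/3-/- responses lay above all 4 wt responses in 500 genes (1.92%) and below them in 655 (2.52%). The response differences given below are therefore estimates with an error, and none of them passed the test across all genes in the fit used here. Of the 938 genes with a lower response, 386 had a positive and 552 a negative mean wt response, whereas of the 769 with a higher response, 363 had a positive and 406 a negative one. The genotypes lay farther apart after LPS than in medium in 805 of the 938 (85.8%) and 608 of the 769 genes (79.1%), compared with 60.1% of all genes. The 938 and 769 genes were chosen by a value made of these same gaps. All genes are therefore not a matched reference, and the shares are a description only.

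**Figure D1:**
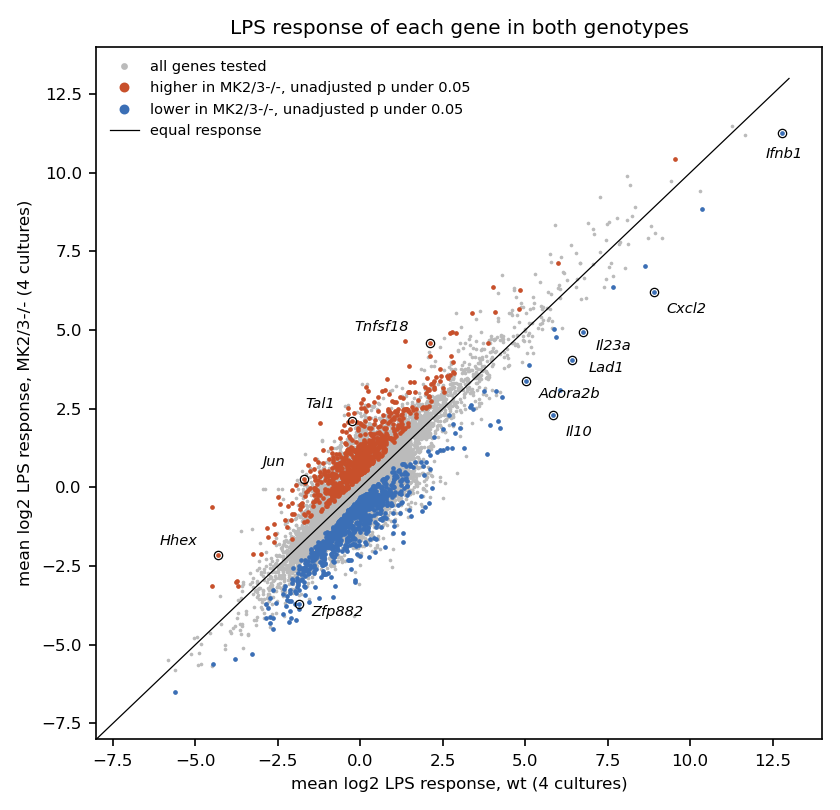
Mean log2 LPS response of each of 26014 genes in wt (x axis) and MK2/3-/- BMDM (y axis), each a mean of 4 cultures, with the line of equal responses. Colours mark the 769 genes with a higher and the 938 with a lower response in MK2/3-/- BMDM at an unadjusted p under 0.05, and Il10 and Cxcl2 lie far below the line among the induced genes.

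Il10, which encodes the anti-inflammatory cytokine IL-10, had the smallest p of all genes. In medium its log2 level was 5.28, 6.10, 6.30 and 5.61 in wt and 5.54, 6.45, 6.23 and 6.36 in MK2/3-/- cultures. After LPS it was 11.73, 12.10, 11.51 and 11.34 in wt and 7.35, 9.22, 8.16 and 9.07 in MK2/3-/- cultures. The genotypes overlapped in medium, whereas after LPS every wt culture was above every MK2/3-/- culture. Il10 rose 57.5-fold in wt and 4.95-fold in MK2/3-/- BMDM, and the response difference was -3.54 on the log2 scale (SE 0.34, 95% interval -4.33 to -2.75, adjusted p = 0.187 in limma), an 11.6-fold smaller rise. The exact permutation test over the 8 cultures, two-sided, gave p = 0.0286, which is the smallest value its 70 splits allow. The level after LPS differed by -3.22 with an adjusted p of 0.00149. In the 3 MK2-/- cultures Il10 had responses of 2.95, 4.67 and 4.84, each below the lowest wt response of 5.21 and above the highest MK2/3-/- response of 2.77.

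**Figure D2:**
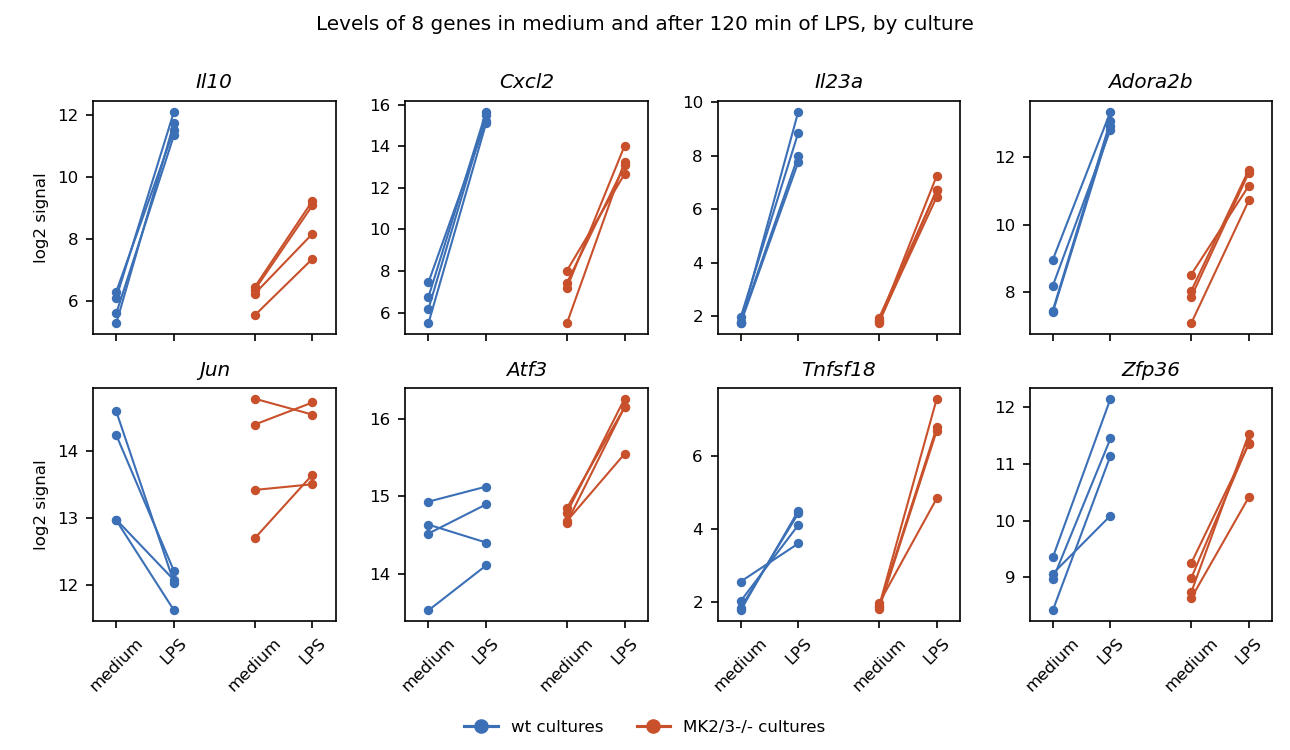
Log2 signal of 8 genes in medium and after 120 min of LPS, where each line joins both arrays of 1 culture (4 wt and 4 MK2/3-/- cultures, by colour). The MK2/3-/- lines end below the wt lines for Il10, Cxcl2, Il23a and Adora2b and above them for Jun, Atf3 and Tnfsf18, and they overlap for Zfp36.

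The promoters of 3 genes that return below are shown because the chemokine Cxcl2 stands below for the cytokines with a lower response and Jun and Atf3 for the transcription factors with a higher one. The RefSeq windows of 300 bases around the gene start (GRCm38.p6) are written 5′ to 3′ along the gene, with motif matches in capitals. For Cxcl2 (chr5:90903649-90903948, plus strand) the capitals are a kappa B motif, matched on both strands from positions -97 and -96 relative to the start. For Jun (chr4:95052173-95052472, minus strand) and Atf3 (chr1:191183284-191183583, minus strand) they are CRE-like motifs, TNACNTCA on either strand, at positions -164 and -45 in Jun and -10 in Atf3. This motif was chosen after the sequences had been read.
Cxcl2: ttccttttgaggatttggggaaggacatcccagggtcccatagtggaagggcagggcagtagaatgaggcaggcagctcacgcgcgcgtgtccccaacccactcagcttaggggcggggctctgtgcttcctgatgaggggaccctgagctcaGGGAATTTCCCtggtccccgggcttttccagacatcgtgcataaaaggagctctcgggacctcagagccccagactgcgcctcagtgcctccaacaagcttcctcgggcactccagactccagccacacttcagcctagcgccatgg
Jun: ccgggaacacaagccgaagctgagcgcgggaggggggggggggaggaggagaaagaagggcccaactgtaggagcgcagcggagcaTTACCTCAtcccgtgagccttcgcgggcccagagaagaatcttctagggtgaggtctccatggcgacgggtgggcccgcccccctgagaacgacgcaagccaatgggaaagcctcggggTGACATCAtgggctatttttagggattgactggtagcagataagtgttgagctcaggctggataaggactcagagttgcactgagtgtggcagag
Atf3: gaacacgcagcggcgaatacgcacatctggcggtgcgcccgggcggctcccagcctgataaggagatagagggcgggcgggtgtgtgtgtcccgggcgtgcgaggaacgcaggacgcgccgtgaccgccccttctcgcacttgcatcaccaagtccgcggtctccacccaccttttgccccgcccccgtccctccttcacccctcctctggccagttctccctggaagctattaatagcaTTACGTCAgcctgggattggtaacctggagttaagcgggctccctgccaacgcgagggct
Of 32851 promoter windows of the same length, 16.4% held the CRE-like and 8.46% the kappa B motif. A match describes the letters and no binding was measured here.

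Of 30 cytokine and early-response mRNAs with AU-rich elements, 22 rose with LPS in wt and 24 in MK2/3-/- BMDM. At an unadjusted p under 0.05, 9 of the 30 had a lower response in MK2/3-/- BMDM (Il10, Il2, Cxcl2, Il23a, Il1b, Cxcl1, Csf2, Ccl4 and Ccl3) and 1 had a higher one (Plk2). Of all genes, 3.61% had a lower and 2.96% a higher response at that p. These shares also belong beside each list count below. The difference was below 0 for 20 and above 0 for 10, with a median of -0.48 compared with -0.01 over all genes, and it ranged from -3.54 for Il10 to 1.83 for Ccl7. Without MK2/3-/- culture 1 the median was -0.17, and without MK2/3-/- culture 4 it was -0.76. The count of 9 was 4 without wt culture 4 or without MK2/3-/- culture 2.

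Cxcl2 encodes a chemokine that attracts neutrophils. After LPS its log2 level was 15.21, 15.66, 15.11 and 15.51 in wt and 12.66, 13.07, 13.26 and 14.02 in MK2/3-/- cultures. These levels did not overlap, whereas those in medium did. The responses were 7.75, 8.91, 9.62 and 9.33 in wt and 4.64, 5.65, 7.77 and 6.83 in MK2/3-/- cultures, with MK2/3-/- culture 3 level with wt culture 1. This amounted to a 479-fold and a 74.7-fold rise, and the response difference was -2.68 (SE 0.71, 95% interval -4.33 to -1.03, adjusted p = 0.478 in limma). The related neutrophil attractant Cxcl1 had a difference of -1.52 (95% interval -3.00 to -0.05), with MK2/3-/- culture 3 inside the wt range. Ccl3 and Ccl4, chemokines for monocytes and lymphocytes, had differences of -0.86 and -1.14.

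Of the 18 chemokines measured, 16 rose in wt and 16 in MK2/3-/- BMDM, 4 had a lower and 0 a higher response at an unadjusted p under 0.05, and the median difference was -0.34. The shares of all genes at that p were 3.61% lower and 2.96% higher. These 4 chemokines (Cxcl1, Cxcl2, Ccl3 and Ccl4) are among the 9 mRNAs with AU-rich elements above, so that both counts rest on the same genes. The count of 4 was 1 or 2 when any 1 of 6 cultures was left out, those being wt cultures 1, 3 and 4 and MK2/3-/- cultures 1, 2 and 4. Values above 0 without passing that p were seen for the monocyte attractants Ccl2 (0.79), Ccl7 (1.83) and Ccl12 (0.90). Cxcl9, a target of interferons, had a difference of 2.42 (SE 1.09, adjusted p = 0.773).

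Il23a encodes the p19 subunit of IL-23 and was not well above background in medium on any array. After LPS its log2 level was 8.86, 9.64, 7.76 and 8.0 in wt and 6.70, 6.46, 6.73 and 7.25 in MK2/3-/- cultures, with no overlap. It rose at least 35.1-fold in wt and at least 9.59-fold in MK2/3-/- BMDM, and the fitted response difference was -1.80 (SE 0.42, adjusted p = 0.413 in limma). A bound of this kind sets the mean after LPS against the lowest signal well above background on the medium arrays. The MK2-/- responses of 6.96, 8.09 and 6.33 were all above those of MK2/3-/- cultures, which reached 5.45.

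Il2, the T cell growth factor, had responses of 7.11, 7.20, 4.44 and 5.51 in wt and 1.06, 2.98, 4.17 and 4.21 in MK2/3-/- cultures. The groups did not overlap but came close, as wt culture 3 and MK2/3-/- culture 4 differed by less than the spread within either group, and the difference was -2.96 (SE 0.89, adjusted p = 0.566). Il1b (IL-1 beta) had responses of 8.50, 7.77, 8.61 and 9.64 in wt and 5.74, 6.82, 7.84 and 7.74 in MK2/3-/- cultures, a difference of -1.59 (adjusted p = 0.669). Here MK2/3-/- culture 3 lay just above wt culture 2. Csf2 (GM-CSF) was at background in medium and rose at least 74.1-fold in wt and at least 32.0-fold in MK2/3-/- BMDM, with a fitted difference of -1.29 (adjusted p = 0.726).

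For Tnf the responses were 8.15, 7.64, 8.28 and 8.01 in wt and 5.81, 6.65, 7.96 and 7.50 in MK2/3-/- cultures. Cultures 1, 2 and 4 of MK2/3-/- BMDM lay below all wt cultures and culture 3 within their range, and the difference was -1.04 with a 95% interval of -2.09 to 0.01 (adjusted p = 0.764). Il6 responded by 9.84, 12.94, 12.20 and 11.69 in wt and by 10.80, 10.52, 10.85 and 12.62 in MK2/3-/- cultures, with full overlap, and its difference of -0.47 had a 95% interval of -2.16 to 1.23. This interval allows a several-fold difference either way. Ptgs2, which encodes cyclooxygenase 2, had a difference of 1.14 with an even wider interval of -1.82 to 4.10.

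Among 23 interleukins, colony-stimulating factors and TNF family ligands, 16 rose in wt and 19 in MK2/3-/- BMDM, 5 had a lower and 3 a higher response at an unadjusted p under 0.05, and the median difference was -0.08. At that p, 3.61% of all genes were lower and 2.96% higher. The 5 with a lower response (Il10, Il2, Il23a, Il1b and Csf2) are the rest of the 9 mRNAs with AU-rich elements above. The lower counts of these lists are therefore not separate observations. The 3 with a higher response were Tnfsf18 (the ligand of the receptor GITR), Osm (oncostatin M) and Il33 (the alarmin IL-33). Tnfsf18 was not above background in medium, and after LPS its log2 level was 4.11, 4.50, 4.43 and 3.61 in wt and 6.78, 7.56, 6.69 and 4.84 in MK2/3-/- cultures, with no overlap. It rose at least 1.66-fold in wt, where 3 of 4 LPS arrays measured it, and at least 7.71-fold in MK2/3-/- BMDM (fitted difference 2.47, SE 0.64, adjusted p = 0.46 in limma). Osm responses of 0.21, 0.48, 0.97 and 1.05 in wt and 1.37, 2.15, 1.17 and 1.42 in MK2/3-/- cultures did not overlap either, whereas those of Il33, which was at background in medium, did.

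Cells induce immediate-early transcription factors without new protein synthesis. Of 24 such genes 10 rose and 5 fell in wt, 12 rose and 4 fell in MK2/3-/- BMDM, and 4 had a higher (Jun, Atf3, Fosl2 and Nr4a3) and 0 a lower response at an unadjusted p under 0.05. At that p 2.96% of all genes had a higher and 3.61% a lower response. The difference was above 0 for 17 of the 24, with a median of 0.28 compared with -0.01 over all genes. A median of 0.28 was also seen for 684 genes induced by LPS in MK2-/- BMDM, which are described below with the limit of that choice. Jun, the AP-1 subunit whose promoter is printed above, had log2 levels in medium of 14.24, 14.59, 12.98 and 12.97 in wt and 14.40, 14.79, 12.70 and 13.42 in MK2/3-/- cultures. After LPS the levels were 12.21, 12.04, 12.07 and 11.62 in wt and 14.73, 14.55, 13.65 and 13.51 in MK2/3-/- cultures. They overlapped in medium but not after LPS. Jun fell in wt by 1.71 on the log2 scale (-2.03, -2.56, -0.90 and -1.34; adjusted p = 0.0057), and in MK2/3-/- BMDM its mean response was 0.28 (0.33, -0.24, 0.95 and 0.09), without passing the test. The response difference was 1.99 (SE 0.41, adjusted p = 0.395 in limma), and the MK2-/- responses of -1.32, -2.19 and -1.16 lay within the wt range.

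Atf3, a stress-induced factor of the ATF/CREB family that restrains TLR-driven transcription, had log2 levels after LPS of 14.11, 15.13, 14.90 and 14.40 in wt and 16.27, 16.16, 15.55 and 16.16 in MK2/3-/- cultures, without overlap. Its responses of 0.58, 0.19, 0.38 and -0.23 in wt and 1.47, 1.31, 0.87 and 1.5 in MK2/3-/- cultures gave a difference of 1.06 (SE 0.23, adjusted p = 0.395). Fosl2, another AP-1 subunit, had a difference of 1.00 (adjusted p = 0.555) with MK2/3-/- culture 3 within the wt range. A second Fosl2 probe, dimmer but above background on all 16 arrays, had a mean wt response of 1.03 and a difference of 0.38 that did not pass an unadjusted p of 0.05. Nr4a3, an orphan nuclear receptor at background in medium, rose at least 2.29-fold in wt (3 of 4 LPS arrays measured it) and at least 9.87-fold in MK2/3-/- BMDM. Of the members that did not pass that p, Egr1 had a difference of 1.15, Mafk of 0.89, Klf2 of 0.66, Klf4 of 0.52, Fos of 0.10, Nr4a1 of -0.46 and Junb of -0.54.

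Ifnb1, which encodes interferon beta, was above background on 0 of 4 wt and 1 of 4 MK2/3-/- medium arrays and rose at least 2772-fold in wt. Its fitted responses, which rest on medium signals mostly at background, were 12.63, 13.32, 12.13 and 13.10 in wt and 10.37, 10.79, 11.19 and 12.71 in MK2/3-/- cultures, a fitted difference of -1.53 (SE 0.52, adjusted p = 0.642), with MK2/3-/- culture 4 within the wt range. The level after LPS, measured on all arrays, differed by -1.18 (adjusted p = 0.181). Of the 29 genes measured in the list of Ifnb1 and interferon-stimulated genes, 25 rose in wt and 28 in MK2/3-/- BMDM, and 27 had a difference above 0, with a median of 0.55. At an unadjusted p under 0.05, however, only Irf8 (1.96) and Ifit2 (0.85) had a higher and Ifnb1, by its fitted value, a lower response. Non-overlapping cultures were seen in 0 of the 29, where of all genes 1.92% lay above and 2.52% below wt without overlap. The number with a higher response was 7 without MK2/3-/- culture 4 and 5 without MK2/3-/- culture 1. Irf8, a transcription factor of the myeloid lineage, responded by 0.21, 1.1, 0.04 and -0.73 in wt and by 2.77, 2.93, 2.22 and 0.52 in MK2/3-/- cultures, where culture 4 was the one inside the wt range. Isg15, Ifit1 and Rsad2, which encode antiviral effectors, had differences of 0.30, 0.47 and 0.41 without passing the threshold.

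NF-kB subunits, IkB proteins and feedback regulators were close together in both genotypes. Of the 19 genes 17 rose in wt and 18 in MK2/3-/- BMDM, 0 had a response difference at an unadjusted p under 0.05, and all differences lay between -0.33 (Nfkbiz) and 0.23 (Rela and Bcl3). Nfkbia, which encodes the inhibitor IkB alpha, rose by 3.63, 3.43, 3.60 and 3.51 in wt and by 3.41, 3.16, 3.65 and 3.06 in MK2/3-/- cultures, with a 95% interval of the difference from -0.62 to 0.18. Among 23 Toll-like receptors and adaptors only the ubiquitin ligase Traf6 had a response difference at that p (0.50), and the list median was 0.06.

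In the p38 cascade itself, 9 of 20 genes rose in wt and 9 in MK2/3-/- BMDM (median difference 0.11), and 3 had a response difference at an unadjusted p under 0.05, both targeted genes and Rps6ka5 (the kinase MSK1, 0.53). Among 14 AU-rich element binding proteins and decay factors, with a median of -0.02, 1 did, Zfp36l1, a relative of tristetraprolin. Its responses were -1.51, -1.66, -1.03 and -0.23 in wt and -2.67, -3.33, -3.40 and -1.65 in MK2/3-/- cultures, a difference of -1.65 (SE 0.47, adjusted p = 0.519), with MK2/3-/- culture 4 level with wt culture 2. The mRNA of tristetraprolin, Zfp36, rose by 2.74, 2.81, 2.49 and 1.03 in wt and by 2.11, 2.80, 2.39 and 1.79 in MK2/3-/- cultures, and its difference of 0.01 had a 95% interval of -0.99 to 1.01. Among 11 MAPK phosphatases, with a median of -0.23, Dusp7 had a higher response (1.34, adjusted p = 0.636), while Dusp1, which inactivates p38, had a difference of -0.22 with an interval from -0.98 to 0.54.

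Of 17 genes linked to CREB and cAMP, 2 had a lower and 0 a higher response at an unadjusted p under 0.05, and both encode receptors that raise cAMP. The list median was 0.03, and 3.61% of all genes had a lower response at that p. Adora2b, the adenosine A2B receptor, had log2 levels after LPS of 13.35, 12.81, 12.91 and 13.08 in wt and 11.63, 11.16, 10.72 and 11.54 in MK2/3-/- cultures, without overlap, and overlapping levels in medium. The responses were 4.38, 4.62, 5.50 and 5.61 in wt and 3.59, 2.63, 3.64 and 3.68 in MK2/3-/- cultures, a difference of -1.64 (SE 0.37, adjusted p = 0.395 in limma). Adora2a, which encodes a related adenosine receptor, rose in both genotypes with a difference of 0.03. Ptger2, the prostaglandin E2 receptor EP2, had a difference of -0.95 (adjusted p = 0.712), whereas the other receptor on the list, Ptger4, had one of 0.55 that did not pass.

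Among 22 SOCS proteins and cytokine receptors, with a list median of 0.06, 3 had a higher and 0 a lower response at that p. Over all genes 2.96% had a higher and 3.61% a lower one. The 3 were the IL-10 receptor subunit Il10ra (0.73), the TNF receptor Tnfrsf1a (0.52) and the decoy receptor Il1r2 (1.37). Il1r2 was above background on 9 of the 16 arrays. All 3 lay above wt without overlap, as did 1.92% of all genes. Il10ra responses were 0.90, 0.73, 0.69 and 0.22 in wt and 1.30, 1.57, 1.34 and 1.24 in MK2/3-/- cultures. Socs1, an inhibitor of cytokine receptor signalling, had a difference of 0.90 with a 95% interval of -0.16 to 1.96. Of 19 co-stimulatory and surface molecules (median 0.24; 15 rose in wt and 15 in MK2/3-/- BMDM) Cd44, the hyaluronan receptor, was the 1 with a higher response (0.75, adjusted p = 0.466), and its 3 other probes had differences of 0.37, 0.41 and 1.38, that of 0.37 without passing an unadjusted p of 0.05. The proteoglycan Sdc4 had a response difference of -0.26 (95% interval -0.88 to 0.35), but its level was higher in MK2/3-/- BMDM by 2.62 in medium (adjusted p = 0.0239) and by 2.36 after LPS (adjusted p = 0.013).

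Neither 17 enzymes of eicosanoid, nitric oxide, arginine and itaconate metabolism nor 12 housekeeping genes held a gene with a response difference at an unadjusted p under 0.05, and of 19 glycolysis and HIF-1 target genes Hk1 did (0.41). The medians of these lists were -0.02, 0.00 and 0.01. For Ptges, the prostaglandin E synthase, a second probe had a mean wt response of 5.65 and a difference of -0.89, whereas the brighter probe used here had a mean wt response of -0.50 and a difference of -0.35.

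**Figure D3:**
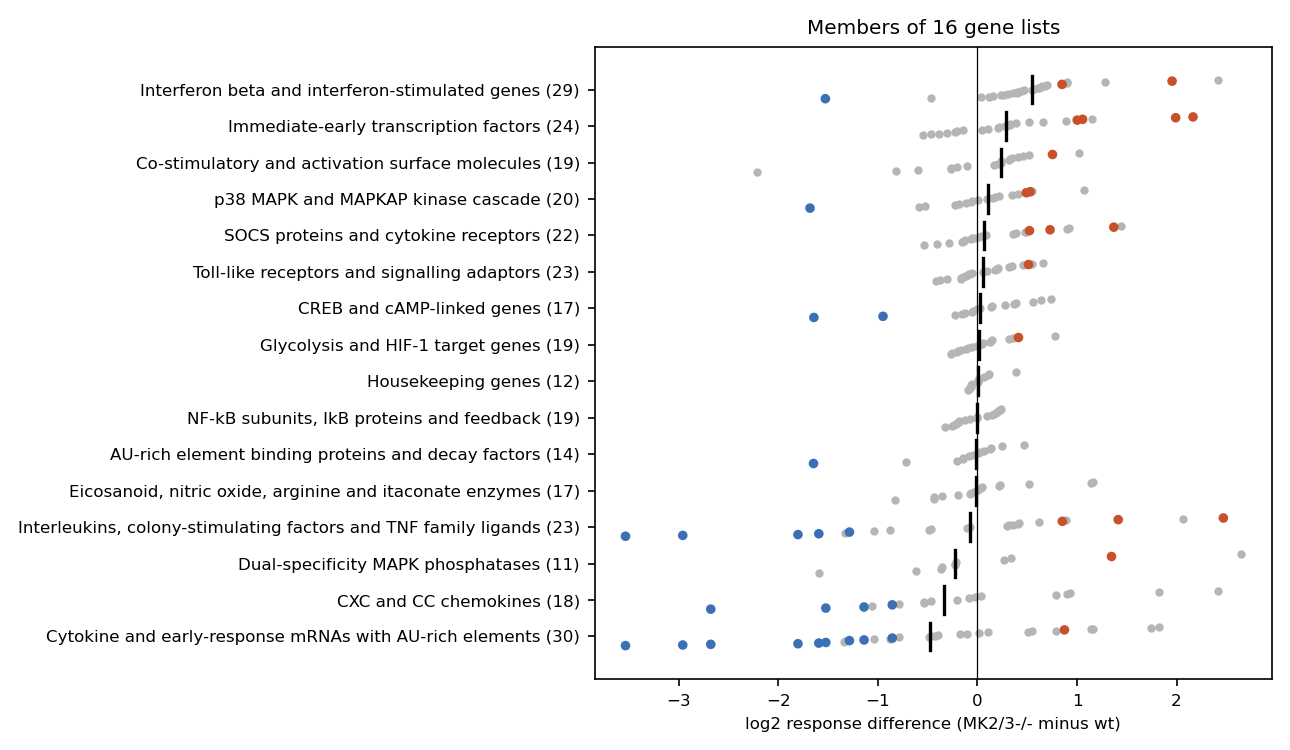
Response difference (MK2/3-/- minus wt, log2; x axis) of each measured member of 16 gene lists (rows, with the number of members), where 1 point is 1 gene and the bar the list median. A gene can be a member of more than 1 list. Members with an unadjusted p under 0.05 are coloured, and the medians run from -0.48 for mRNAs with AU-rich elements to 0.55 for Ifnb1 and interferon-stimulated genes.

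By size of p, with non-overlapping cultures as a condition, the leading genes with a lower response included Il10, Grpel2, Ddx55, Mapkapk3, Gm11545, Krt10, Spic, Lig4, Zfp882, BC048403 and Lad1. They are given as a description, since they were picked by these very values. Spic, an Ets family factor of macrophages that handle haem, rose by 2.68, 2.98, 3.54 and 3.44 in wt and by 0.74, 1.53, 1.44 and 1.33 in MK2/3-/- cultures, a difference of -1.90 (SE 0.26). Lad1, which encodes ladinin, was above background on 1 of 4 medium arrays of either genotype, so that its responses of 6.90, 6.99, 5.74 and 6.05 in wt and 3.47, 4.74, 3.76 and 4.28 in MK2/3-/- cultures and the difference of -2.36 are fitted values that rest mostly on background in medium. Most of the others had fallen farther in MK2/3-/- BMDM, such as Ddx55 (an RNA helicase; -1.11 in wt and -2.41 in MK2/3-/-) and Lig4 (DNA ligase IV; -0.78 and -2.38). Zfp882 was above background on no MK2/3-/- LPS array and fell there at least 4.30-fold, with measured log2 means of 6.19 in medium and 2.48 after LPS. Its probe with the highest wt induction, above background on 3 of 16 arrays, had a difference of 1.02 in place of -1.84. A second probe of Krt10, above background on 5 of 16 arrays, had a difference of 1.45 in place of -1.42.

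The 12 leading genes with a higher response were Tal1, Olfr30, D830031N03Rik, Rab43, Itga4, Hhex, Afap1l1, Itpkc, Ccr6, C5ar2, Izumo1r and Car15. Some lay near background in medium: Olfr30 was above it on 2 of 4 arrays of either genotype and Afap1l1 on 1 of 4 MK2/3-/- arrays. Over the alternatives the difference was as low as 0.90 for Olfr30, 0.99 for Afap1l1, 0.66 for D830031N03Rik and 0.29 for Ccr6. In the main fit these were 2.38, 2.64, 1.92 and 1.15. Tal1, a transcription factor of blood cell development, responded by -0.30, -0.28, 0.07 and -0.55 in wt and by 2.24, 2.34, 2.55 and 1.36 in MK2/3-/- cultures, a difference of 2.39 (SE 0.28, adjusted p = 0.187). It rose in MK2/3-/- BMDM (adjusted p = 2.73e-04), with culture 4 the lowest, and its wt response did not pass the test. Hhex, a homeobox factor, fell in both genotypes, with responses of -4.70, -3.93, -3.97 and -4.65 in wt and -2.16, -1.31, -2.35 and -2.83 in MK2/3-/- cultures and a difference of 2.15. Itga4, the integrin alpha 4 chain, rose in both genotypes, by 1.26 and 2.33, and Itpkc, an inositol trisphosphate kinase, by 2.09 and 3.11. C5ar2, a receptor of the complement fragment C5a, fell in wt (-1.27) and had a mean response of -0.20 in MK2/3-/- BMDM, which did not pass the test.

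The comparisons with MK2-/- BMDM share the wt or the MK2/3-/- arrays, and in neither did a gene pass an adjusted p of 0.05 (limma, smallest 0.367 for MK2-/- against wt and 0.427 for MK2/3-/- against MK2-/-, with 948 and 1139 genes at an unadjusted p under 0.05).

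**Figure D4:**
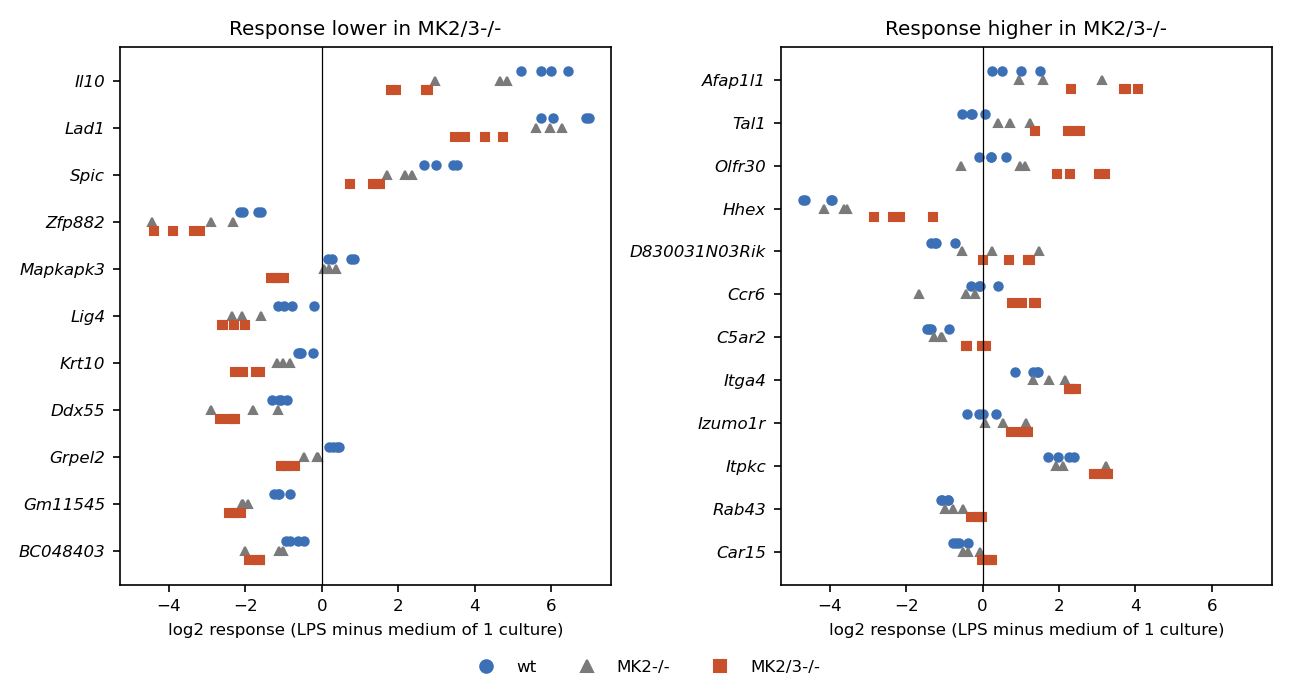
Log2 LPS response of each culture (points) for 11 leading genes with a lower and 12 with a higher response in MK2/3-/- BMDM, for wt (4), MK2-/- (3) and MK2/3-/- (4) cultures. The wt and MK2/3-/- cultures do not overlap, which was a condition for the choice of these genes, and for Il10 the 3 MK2-/- cultures lie between them.

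Genes were also grouped by their response in MK2-/- BMDM, whose arrays do not enter the response difference. The choice is still not neutral, since MK2-/- and MK2/3-/- BMDM both lack MK2. It can favour genes whose response is larger without MK2, and its part in the values below was not tested. The 684 genes that rose in MK2-/- BMDM by at least 2 on the log2 scale had a median difference of 0.28. Their median response was 2.81 in wt and 3.14 in MK2/3-/- BMDM. The culture medians were 2.63, 3.37, 3.02 and 2.5 in wt and 3.23, 3.55, 3.29 and 2.72 in MK2/3-/- cultures, which overlap. Of the 684 genes 9.50% had a higher and 4.53% a lower response at an unadjusted p under 0.05. The 537 genes that fell by at least 2 in MK2-/- BMDM had medians of -2.11 in wt and -2.57 in MK2/3-/- BMDM, with 16.2% lower and 2.98% higher. Their culture medians of -1.84, -2.70, -2.29 and -1.69 in wt and of -2.70, -2.93, -2.79 and -2.01 in MK2/3-/- cultures overlap as well. Over all genes, the SD of the response in 1 culture was 1.01, 1.22, 1.24 and 0.98 in wt and 1.30, 1.46, 1.33 and 1.12 in MK2/3-/- cultures, with MK2/3-/- culture 4 inside the wt range.

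Il10 is the protein-coding gene next to Mapkapk2 on chromosome 1, with 0 protein-coding genes between them in RefSeq. Lad1 lies 77 and Yod1 (-1.04) 8 protein-coding genes from Mapkapk2, and Alas1 (-0.99) and Ccdc51 (-1.04) lie 22 and 75 from Mapkapk3 on chromosome 9. Among neighbours with a higher response, Dusp7 (1.34) lies 20 genes from Mapkapk3 and Chil1 (1.69) 47 from Mapkapk2. All of these genes were singled out after their values were seen. Within 100 genes of either targeted gene, 18 of 379 genes had a lower and 11 a higher response at an unadjusted p under 0.05, 7.65% in all compared with 6.74% of 19329 other protein-coding genes. Whether the DNA beside the targeted genes differs between the mice was not tested.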

How the data were processed

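RNA of each culture was labelled with Cy3 and hybridised to 1-colour Agilent mouse arrays by the authors. The deposited scanner files hold background-subtracted probe intensity values from Agilent Feature Extraction 11.0.1.1, and a table holds the authors' log2 values, quantile normalized over all samples and centred per probe on the median; it served as an alternative. Here log2 intensities of 55681 probes were quantile normalized over 23 arrays, without flagged and control spots. Of 32885 probes with an accession, the brightest of a gene was kept, for 26014 genes, 20886 of them named through RefSeq and 5128 under their accession. Signals at background have no fold, and bounds are given. Array number limits precision.

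The LPS minus medium differences of the 8 cultures (equal replicate numbers in the labels) were compared with limma 3.58.1 (R 4.3.3) and Benjamini-Hochberg adjustment. Over the 13225 genes above background on all arrays, residuals of the same culture correlated by 0.41 to 0.78 (8 of 8 pairs above 0.1), and over 25893 genes by 0.0893 to 0.568 (median 0.265, 7 of 8 above 0.1). The fit was checked on simulated data. Named are Mapkapk2 and Mapkapk3, the 12 genes with the smallest p in each direction among those bright in at least 1 group and without overlap, 15 cytokine and feedback genes whatever their values, and the 3 members of each list with the smallest p. Further list members are given as examples. Of the 15, Il12b had no matched probe and so has no value. The members and lists were chosen with earlier results of these data known. Il12b, Mx1, Mx2 and Cxcl11 are not analysed here. Of the 24 leading genes 1 is counted but not reported here. Alternatives changed the block, scaling, background, probe, filter, floor, flags, variance model, test and cultures; normexp took median spot signals.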

Additional observations from a re-analysis of the deposited data

Results flagged for a closer look

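In 4 of the 152 groups of 4 culture responses examined (2.63%; 76 genes in both genotypes), 1 culture stood apart from the other 3 by Dixon's criterion, which chance meets in about 1 in 20 groups. The Il6 response of MK2/3-/- culture 4 was 12.62, compared with 10.52 to 10.85 in the other cultures of that genotype. The Adora2b response of MK2/3-/- culture 2, whose medium array had no gradient fit, was 2.63, compared with 3.59 to 3.68. In wt, culture 1 had an Ifit2 response of 5.43 (the others 4.57 to 4.66), and culture 2 a Cnot7 response of 1.27 (the others 0.64 to 0.73). No cause of these values was tested.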

How the results depend on the processing

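With culture as a fixed block, no gene passed an adjusted p of 0.05 for the response difference, except after normexp. Without the replicate block 1 gene passed (Grpel2), and 478 genes had a higher and 639 a lower response at an unadjusted p under 0.05. With culture as a random replicate block, at an estimated correlation of 0.262, 11 passed (Grpel2, Il10, Mapkapk3, Lig4, AK133004, Krt10, Ddx55, AK154954, Alas1, Cmtr2 and Ankrd50), and after normexp 6 passed (Gm11545, Il10, Mapkapk3, Grpel2, Rab43 and Tal1). The adjusted p of Il10 ran from 0.0182 to 0.671 over the alternatives, and its difference from -3.75 to -3.06. Leaving out 1 culture gave 541 to 1071 genes with a higher response (541 without wt culture 1) and 692 to 1258 with a lower one, none of them past an adjusted p of 0.05, and gave 1321 to 2165 genes that rose (lowest without wt culture 3) and 1563 to 3241 that fell in wt (lowest without wt culture 2). In MK2/3-/- BMDM 2336 to 3251 genes rose and 3185 to 4390 fell when 1 culture was left out. Scaling to the 75th percentile shifted the median difference of all genes to -0.05.

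Of 76 named genes, 66 kept the sign of their difference under each of 22 alternatives. Of the leading 24, 22 did. With the probe of highest wt induction, Krt10 was 1.45, Zfp882 1.02, Rc3h1 -0.13, Rgs2 -0.050 and Ywhaz -0.031, and Krt10 was 0.013 as the mean of its probes. After normexp Il6 was 0.27 and Zfp36 -0.14. With 1 culture left out, Zfp36 ranged from -0.40 (without wt culture 4) to 0.19 and was -0.17 and -0.031 without MK2/3-/- culture 2 or 3, and Tbp ranged from -0.16 to 0.0082 (without MK2/3-/- culture 1). Nfkbia was 0.0042 and Tnip1 0.0051 with 75th percentile scaling. The causes were not tested. Of 352 list medians 3 moved by more than their spread, all for mRNAs with AU-rich elements (-0.17, -0.73 and -0.76 without MK2/3-/- culture 1, 3 or 4).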
